A study of Mus musculus with 24 samples.

Results

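Interferon-stimulated genes (ISGs) are genes whose transcription rises when cells sense interferon, and a panel of 45 of them was followed through sorted myeloid cells of the mouse colon. The members were chosen by gene symbol as a module of ISGs, with no measured value in the rule. Of the 45 members, 44 were in the table of 17301 genes, and all 44 were among the 12878 genes tested, which had a mean RPKM (reads per kilobase of gene, scaled to library size) that reached 1 in any of the groups. The expression of Gbp5 was not analysed here.

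RNA was sequenced from 4 populations sorted from colon lamina propria (LP) of C57BL/6J mice, which the labels call healthy, and from tumours (polyps) in the colon of Apc Min/+ mice. These populations were F4/80hiMHCIIhi macrophages and F4/80hiMHCIIlow macrophages (hereafter MHCIIhi and MHCIIlow), Ly6ChiMHCII- monocytes and Ly6GhiF4/80-CD11b+ neutrophils, with 3 libraries in each of 8 groups and 24 libraries in all. Each library came from pooled tissue of several mice and carries a donor label from I to VII, so that libraries of 1 tissue with the same label share a source. Apc Min/+ mice carry a germline Apc mutation and had received dextran sodium sulphate (DSS) in the drinking water, which brings on adenomas in the colon. The methods describe DSS also for matching control mice, whereas the labels call the LP healthy, so that the treatment of the LP donors is not settled. Tumours and LP were also digested differently (LP with EDTA and then collagenase, tumours with collagenase and DNase I). Tissue, genotype, digestion and any difference in DSS treatment therefore cannot be told apart in any comparison of tumour with LP. The labels give no age for these mice.

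Interferons reach cells through surface receptors that act on the kinases JAK1, JAK2 and TYK2. Type I interferons, such as IFN-beta, lead to a complex holding STAT2 and IRF9 that binds interferon-stimulated response elements (ISREs) near ISGs, whereas IFN-gamma acts mainly at gamma-activated sites (GAS). Many ISGs, including the IFIT, OAS and Mx genes, encode antiviral proteins, while guanylate binding proteins (GBPs) and immunity-related GTPases (IRGs) attack microbes inside vacuoles and respond strongly to IFN-gamma. In the gut, where microbes are always near, resident myeloid cells are known for a low, lasting level of ISG transcription.

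The sequences upstream of the members were searched for the letters of the ISRE and GAS. In the 250 bases before each RefSeq start site (GRCm38.p6), the ISRE core was searched as GAAANNGAAA, which reads TTTCNNTTTC on the other strand, and matches were allowed to overlap. It was found in 19 of 43 promoters of the members, or 44.2%, as against 978 of 32851 promoters of all genes, or 2.98%. The GAS core TTCNNNGAA, which reads the same on both strands, was found in 7 of 43 promoters of the members (16.3%) and in 7.02% of all. These counts cover 35 members, Gbp5 included. Dhx58, Ifi204, Iigp1, Mx1, Mx2, Oas2, Parp14, Rtp4, Usp18 and Zbp1 had no entry among the sequences used here. A match is a description of these letters, not a site shown to be bound. The windows below run along each gene's own strand, with the ISRE core and its overlapping repeats in capitals. They were taken only from members with a match: members called lower in both macrophage subsets (Ifit1, Ifit3, Rsad2, Isg15, Oas1a), genes of the GTPase group (Irgm1, Igtp, Gbp2, Gbp7) and Bst2.
Ifit1, chr19:34640770-34640828, plus strand: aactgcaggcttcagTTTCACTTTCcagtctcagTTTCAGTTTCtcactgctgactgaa
Ifit3, chr19:34583358-34583431, plus strand: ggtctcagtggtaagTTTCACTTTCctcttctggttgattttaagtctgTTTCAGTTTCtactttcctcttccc
Isg15, chr4:156200860-156200911, minus strand: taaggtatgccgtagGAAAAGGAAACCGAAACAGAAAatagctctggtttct
Rsad2, chr12:26456548-26456587, minus strand: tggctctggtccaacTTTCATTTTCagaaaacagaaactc
Oas1a, chr5:120907526-120907560, minus strand: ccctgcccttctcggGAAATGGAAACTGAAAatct
Irgm1, chr11:48871421-48871465, minus strand: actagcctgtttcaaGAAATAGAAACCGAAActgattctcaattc
Igtp, chr11:58199507-58199546, plus strand: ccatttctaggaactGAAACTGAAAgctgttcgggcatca
Gbp2, chr3:142620589-142620628, plus strand: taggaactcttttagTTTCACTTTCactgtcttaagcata
Gbp7, chr3:142530268-142530307, plus strand: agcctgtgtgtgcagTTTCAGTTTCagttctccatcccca
Bst2, chr8:71537572-71537617, minus strand: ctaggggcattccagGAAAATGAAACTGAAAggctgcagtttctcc
The window of Ifit3b, the near copy of Ifit3 at chr19:34607754-34607827, held the same letters. Gbp7 and Bst2 carried the core as well, although neither was called lower in tumour macrophages (see their values in the GTPase and antiviral groups). Conversely, Irf7, Irf9, Ifih1, Ifit2, Oasl1, Oasl2, Cmpk2 and Samd9l had no match in the 250 bases searched. All of these were called lower in tumour MHCIIhi macrophages.

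Values are the deposited log2 RPKM, and a change is the difference of 2 group means on that scale, tumour minus LP, with the standard error of limma's fit. A gene was called changed where limma's p value, adjusted over all 12878 genes with the Benjamini-Hochberg method, was under 0.05. Reads on genes ranged from 12.84 M to 41.72 M per library. The libraries carried the markers of their gates: summed RPKM of 8 macrophage markers was 3940 to 7280 in macrophages and 439 to 623 in the other cells, and that of 7 neutrophil markers was 11600 to 30600 in neutrophils and at most 301 elsewhere. Monocyte markers, which separated monocytes from macrophages (449 to 983 against 7.54 to 94.6), were as high in neutrophils (577 to 1010). B and plasma cell markers were higher in the LP libraries, most of all in monocytes (157 to 575 in LP, 0.192 to 4.68 in tumours) and neutrophils (358 to 1300 against 0.66 to 20.1). Fibroblast markers were also higher in LP (6.43 to 51.7, against 0.00855 to 1.57 in tumours), and 4 of these 5 markers were at 0 reads in all tumour monocyte libraries. The 6 dendritic cell markers were higher in LP than in tumour macrophages and neutrophils (3.91 to 43.4 against 0.0325 to 4.56) but overlapped in monocytes, whereas epithelial markers were higher in tumour than in LP neutrophils (122 to 243 against 10.2 to 44.7). The 6 plasmacytoid dendritic cell markers ran from 5.39 to 66.6 in LP monocytes. There Ly6d was counted in 1147, 12 and 907 reads, whereas Siglech, of the same list, was counted in 0, 26 and 0. These 6 markers were higher in LP than in tumour MHCIIlow macrophages (13.6 to 25.2 against 5.39 to 6.39). They overlapped in MHCIIhi macrophages (7.02 to 10.7 against 4.69 to 7.16). T and NK cell markers ran the other way, at 0.662 to 3.32 in LP and 4.79 to 16.5 in tumour MHCIIlow macrophages, and overlapped in MHCIIhi macrophages (0.731 to 1.89 against 1.33 to 4.23). The part of these cells in the results was not tested, and in sorted bulk samples a change in the mix of cells cannot be told apart from a change in RNA per cell.

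The ISG module was lower in tumours, and most so in macrophages. In MHCIIhi macrophages 32 of the 44 members were called lower in tumours and 1 was called higher, while 11.5% of all genes tested were called lower and 8.01% higher. In MHCIIlow macrophages 30 were called lower and 1 higher, beside 11.8% and 11.5% of all genes. In monocytes 19 were called lower and 0 higher (4.43% and 4.86% of all genes), and in neutrophils 13 were called lower and 0 higher (19.0% and 13.1%). The median change of the members was -1.82 in MHCIIhi macrophages, -1.52 in MHCIIlow macrophages, -0.96 in monocytes and -0.53 in neutrophils, where the medians of all genes were 0.00, 0.06, 0.00 and -0.12. Every tumour library lay below every LP library for 39 members in MHCIIhi macrophages, 30 in MHCIIlow macrophages, 29 in monocytes and 18 in neutrophils, as against 22.1%, 19.3%, 15.1% and 21.8% of all genes. The neutrophil counts were thus the nearest to the background. Without LP replicate IV the monocyte count was 12 and without tumour replicate II it was 11.

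**Figure D1:**
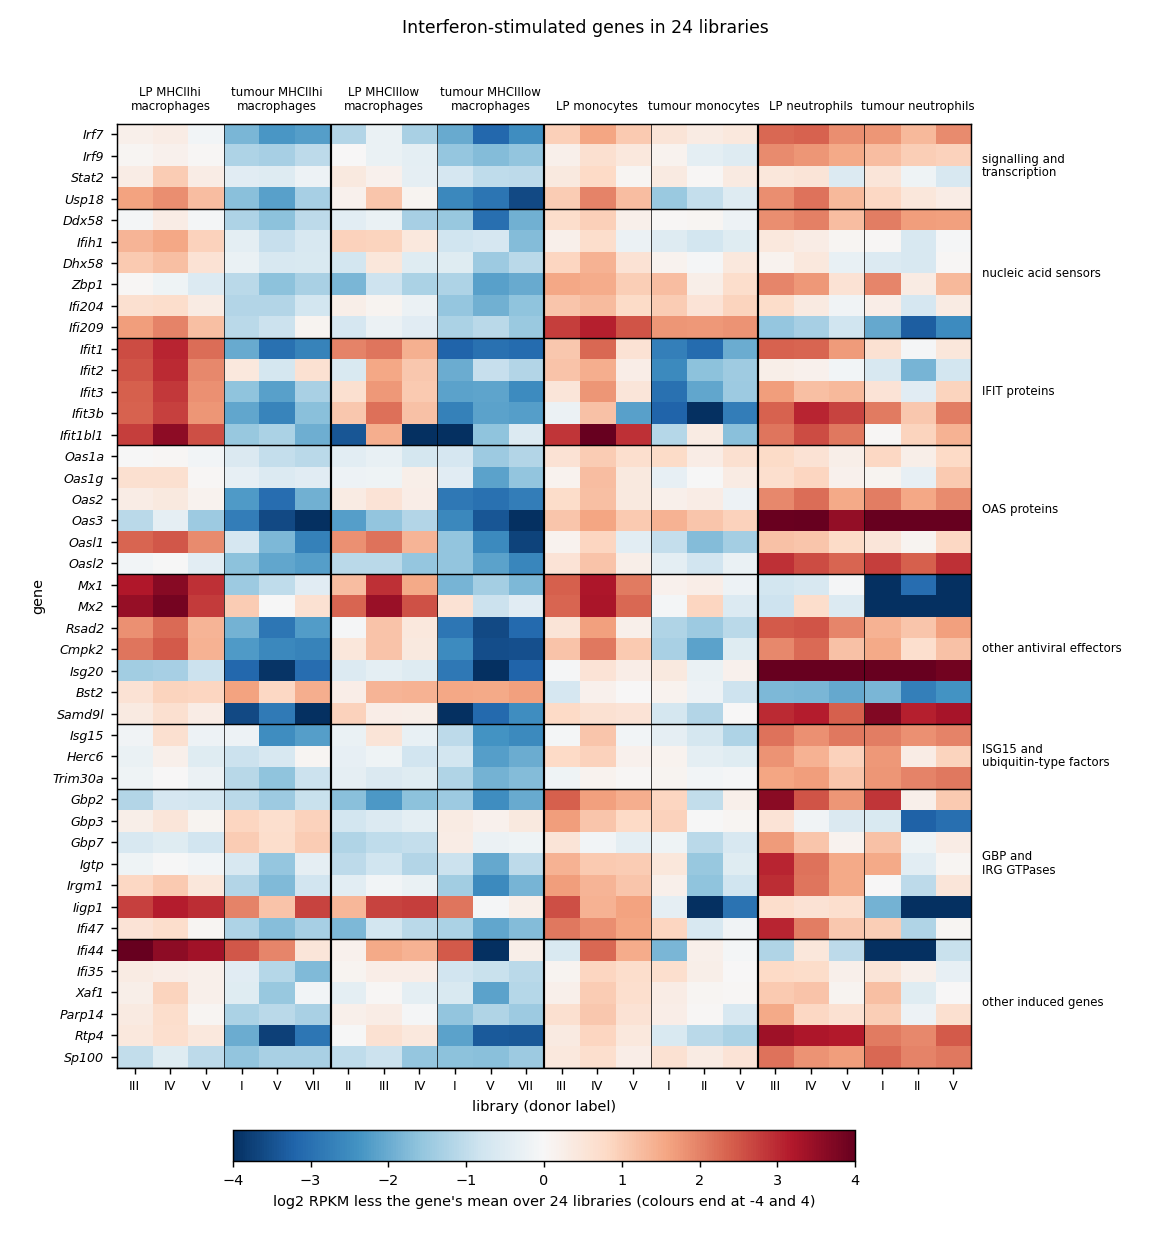
Log2 RPKM of 44 ISGs (rows, grouped by role) in 24 libraries (columns, by population and tissue, named by donor label), each gene less its mean over all libraries, with colours ending at -4 and 4. Tumour macrophages form the bluest columns, while Oas3, Isg20 and Samd9l stay red in neutrophils of both tissues and the GTPase rows differ between libraries of 1 group.

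Of the 44 members, 38 were called lower in at least 1 population and 8 in all 4, namely Ifit1, Irf9, Irgm1, Mx1, Mx2, Rsad2, Rtp4 and Usp18. Both macrophage subsets shared 28 of these calls, which is 28 of the 32 in MHCIIhi and of the 30 in MHCIIlow macrophages, and for 14 of them neither monocytes nor neutrophils passed the threshold. Monocytes and neutrophils shared 12 calls, of 19 and of 13, and only Igtp and Iigp1 were called lower in both of these populations and in neither macrophage subset. The members called lower nowhere were Bst2, Gbp7, Ifi44, Ifit1bl1, Xaf1 and Zbp1. Several of these calls rested on single libraries: in monocytes those of Irf9, Oasl2, Oasl1, Ifi47, Igtp and Iigp1 were lost without LP replicate III or IV or tumour replicate II, each without at least 1 of these. In neutrophils that of Rtp4 was lost without LP replicate III or tumour replicate II. In MHCIIlow macrophages that of Irgm1 was lost without tumour replicate V, that of Oas3 without tumour replicate VII, and that of Oasl2 without LP replicate II or III or tumour replicate V or VII.

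The 4 members that carry or restrain the interferon signal (Irf7, Irf9, Stat2 and Usp18) were all called lower in both macrophage subsets, and 2 of 4, Irf9 and Usp18, also in monocytes and in neutrophils. Irf7, the transcription factor that amplifies type I interferon production, measured 5.61, 5.71 and 5.31 log2 RPKM in LP MHCIIhi macrophages and 3.59, 3.09 and 3.22 in tumour MHCIIhi macrophages. The change was -2.24 ± 0.28 (SE, limma adjusted p = 7.13e-06), and the groups were well apart. In MHCIIlow macrophages Irf7 measured 4.25, 5.14 and 4.12 in LP and 3.39, 2.26 and 2.94 in tumours, a change of -1.64 ± 0.28 (limma adjusted p = 0.000178). Neutrophils held most Irf7 in both tissues, at 7.71, 7.78 and 7.26 in LP and 7.17, 6.7 and 7.3 in tumours, and their difference did not pass the threshold (limma adjusted p = 0.159). Usp18, the protease that removes ISG15 and restrains the type I receptor, measured 5.48, 5.75 and 5.11 in LP and 2.19, 1.69 and 2.56 in tumour MHCIIhi macrophages, a fall of 3.30 on the log2 scale. In monocytes it measured 4.9, 5.86 and 5.1 in LP and 2.39, 2.92 and 3.36 in tumours, and in neutrophils 5.72, 6.06 and 5.17 against 4.71, 4.34 and 4.18, again with no overlap. Irf9, the DNA-binding partner of STAT2, gave changes of -1.30, -1.40, -0.67 and -0.68 in MHCIIhi macrophages, MHCIIlow macrophages, monocytes and neutrophils, each with an SE of 0.16. Stat2 gave changes of -0.92 ± 0.30 and -0.98 ± 0.30 in the macrophage subsets, calls that were each lost on leaving out any of 4 of the 6 libraries.

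The sensors of foreign nucleic acid had median changes of -1.51, -1.14, -0.72 and -0.40 in MHCIIhi macrophages, MHCIIlow macrophages, monocytes and neutrophils. Of 6 sensors, 5 were called lower in MHCIIhi macrophages, 3 in MHCIIlow macrophages and 1 each in monocytes and neutrophils. Ifih1, which encodes the RNA sensor MDA5, measured 4.56, 4.77 and 4.12 in LP and 2.83, 2.28 and 2.58 in tumour MHCIIhi macrophages, a change of -1.92 ± 0.28 (limma adjusted p = 5.28e-05). Ddx58, which encodes RIG-I, gave changes of -1.34 ± 0.33 in the same cells and 0.07 ± 0.33 in neutrophils. Ifi204, a DNA-binding member of the IFI200 family, measured 6.16, 6.23 and 5.87 in LP and 4.35, 4.37 and 4.79 in tumour MHCIIhi macrophages, and its change there was -1.58 ± 0.25 (limma adjusted p = 0.000109). In monocytes Ifi204 measured 6.65, 6.8 and 6.3 in LP and 6.54, 6.08 and 6.44 in tumours, so that the groups overlapped. Ifi209, of the same family, was called lower in MHCIIhi macrophages (-2.23 ± 0.31), monocytes (-1.03 ± 0.31) and neutrophils (-1.39 ± 0.31), of which the monocyte call was lost under median centring and on leaving out any 1 of the 6 libraries. Values of Ifi204 and Ifi209 are uncertain, because 19.6% and 33.2% of the 51-base stretches of their transcripts also occur in other genes, mainly Ifi211 and Ifi214. Dhx58, which encodes the RIG-I relative LGP2, was called lower in MHCIIhi macrophages alone (-1.44 ± 0.30), and Zbp1, a sensor of Z-form nucleic acid, in none, with changes from -1.11 to -0.23.

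The IFIT genes, whose products bind viral RNA and block its translation, showed the lowest median of any group in MHCIIhi macrophages and monocytes. They lie side by side on chromosome 19, where GENCODE on GRCm38 places Ifit2 at chr19:34550694-34576419, Ifit3 at chr19:34583531-34588731, Ifit3b at chr19:34607970-34613401 and Ifit1 at chr19:34640871-34650009, all on the plus strand. Of 5 genes, 4 were called lower in both macrophage subsets and in monocytes, and 1 in neutrophils, with median changes of -4.41, -3.40, -3.07 and -1.18. Ifit1 measured 6.89, 7.32 and 6.53 in LP MHCIIhi macrophages and 2.27, 1.31 and 1.6 in tumour MHCIIhi macrophages. In MHCIIlow macrophages the LP values were 6.26, 6.42 and 5.72 and the tumour values 1.07, 1.31 and 1.2. Monocytes fell to the same range, from 5.35, 6.58 and 4.87 in LP to 1.56, 1.21 and 2.29 in tumours. Neutrophils kept more of it, at 6.64, 6.61 and 5.98 in LP and 4.88, 4.23 and 4.75 in tumours. The changes were -5.19 ± 0.37, -4.94 ± 0.37, -3.91 ± 0.37 and -1.79 ± 0.37 (limma adjusted p = 1.35e-08, 1.69e-08, 1.15e-06 and 0.0009), and in no population did tumour and LP overlap.

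Ifit3, a partner of IFIT1, measured 6.18, 6.61 and 5.61 in LP and 2.17, 1.61 and 2.48 in tumour MHCIIhi macrophages. In monocytes it measured 4.26, 5.55 and 4.28 in LP and 0.82, 1.72 and 2.34 in tumours, and its change there was -3.07 ± 0.42 (limma adjusted p = 9e-05). Ifit3 and Ifit3b share about 1 stretch of 51 bases in every 2 (50.8% and 44.6% of their transcripts), so that reads could be split between them. Ifit2 was called lower in both macrophage subsets (-2.35 ± 0.51 and -2.02 ± 0.51) and in monocytes (-2.84 ± 0.51). Ifit1bl1 had 0 reads in 1 LP and 1 tumour library of MHCIIlow macrophages, where the groups overlapped. With an SE of 1.76 none of its tumour changes passed the threshold. Its tumour libraries still lay below all LP libraries in MHCIIhi macrophages (-1.57 to -0.89 against 2.95 to 3.95). They did so too in monocytes (-1.28 to 0.7 against 3.23 to 4.63) and in neutrophils (0.43 to 1.78 against 2.5 to 2.98).

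**Figure D2:**
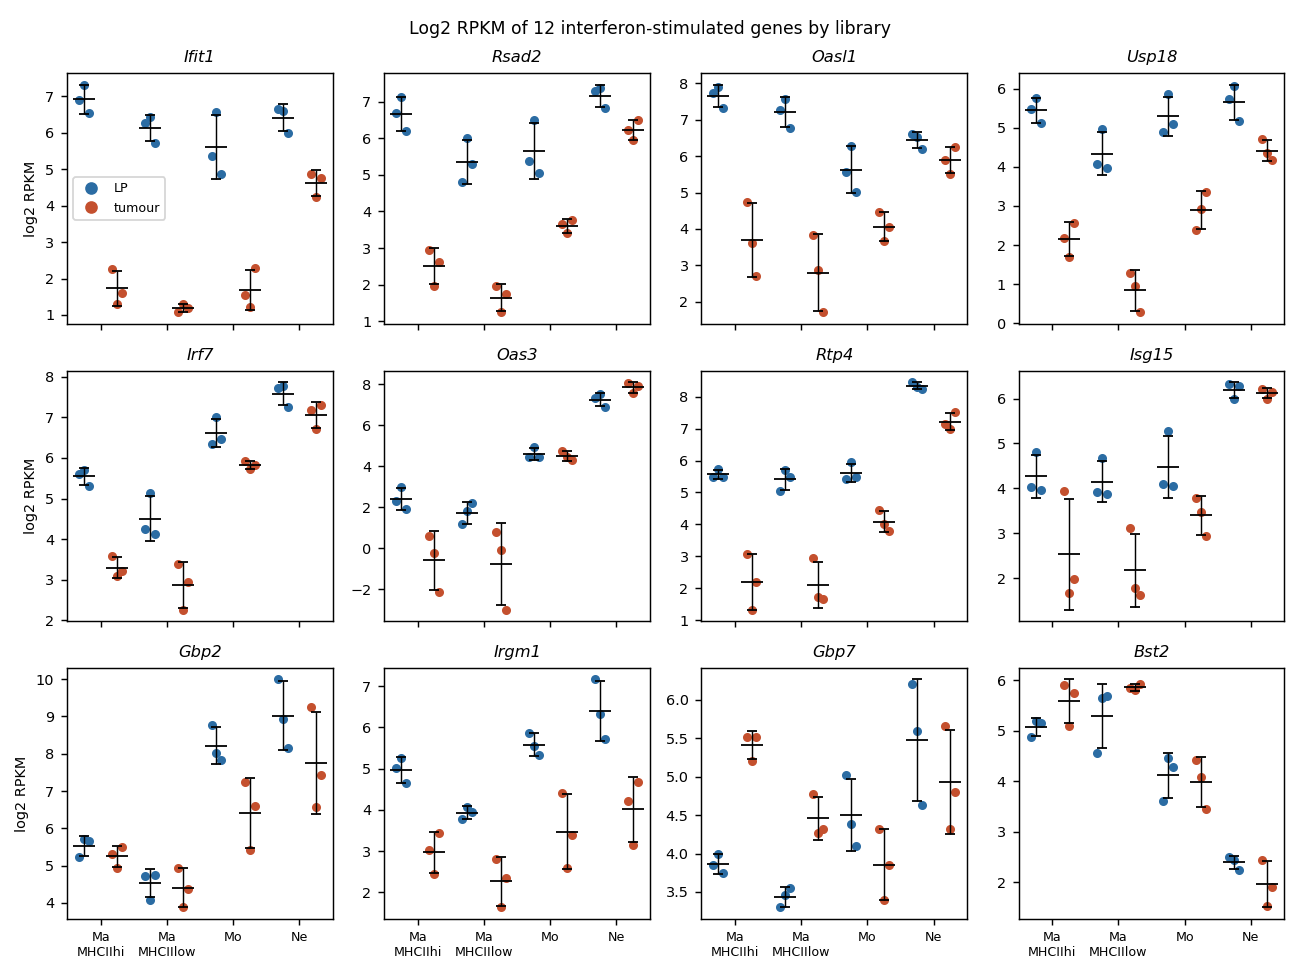
Log2 RPKM (vertical axes, own range per gene) of 12 ISGs in each library, with LP in blue and tumour in red for MHCIIhi and MHCIIlow macrophages (Ma), monocytes (Mo) and neutrophils (Ne), and lines for the mean and SD of 3 libraries. For Ifit1, Rsad2 and Usp18 the tumour points lie below all LP points of the same population, whereas for Gbp7 the tumour macrophages lie above LP.

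The OAS genes, a family in which some members make the oligoadenylates that switch on RNase L, were called lower mainly in macrophages. Of 6 genes, 5 were called lower in MHCIIhi and 6 in MHCIIlow macrophages, 2 in monocytes and 0 in neutrophils, with median changes of -2.24, -1.92, -0.64 and 0.01. The test of the difference of changes, given further on, passed for 2 of the 6 between macrophages and monocytes and for 5 between macrophages and neutrophils. Oasl1, which in mice restrains translation of Irf7, was among the most abundant members in LP macrophages, at 7.74, 7.91 and 7.31 in MHCIIhi and 7.26, 7.58 and 6.77 in MHCIIlow macrophages. Tumour MHCIIhi macrophages held 4.74, 3.62 and 2.71, a change of -3.96 ± 0.47 (limma adjusted p = 4.59e-06), and tumour MHCIIlow macrophages 3.83, 2.87 and 1.71, a change of -4.40 ± 0.47 (limma adjusted p = 1.07e-06). In neutrophils Oasl1 measured 6.6, 6.52 and 6.2 in LP and 5.89, 5.52 and 6.24 in tumours, with overlap. Oas3 was low in LP macrophages (2.3, 3 and 1.92 in MHCIIhi) and fell further in tumours (0.62, -0.25 and -2.15). In neutrophils, by contrast, Oas3 stood at 7.32, 7.51 and 6.89 in LP and 8.06, 7.56 and 7.92 in tumours, where every tumour library was above every LP library although the difference of 0.60 ± 0.69 did not pass the threshold. Oas2 gave changes of -2.69 ± 0.25 and -3.25 ± 0.25 in the macrophage subsets and -0.07 ± 0.25 in neutrophils. Oasl2 was called lower in MHCIIhi macrophages (-1.78 ± 0.26), MHCIIlow macrophages (-0.88 ± 0.26) and monocytes (-1.11 ± 0.26) and stood at 0.08 ± 0.26 in neutrophils. Oas1a and Oas1g share 57.0% and 45.2% of their 51-base stretches with each other or with other genes, and their changes in macrophages lay between -0.64 and -1.36, with the calls of both in MHCIIlow macrophages lost on leaving out single libraries.

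Among the other antiviral effectors, 6 of 7 were called lower in each macrophage subset, 4 in monocytes and 3 in neutrophils. Rsad2 encodes viperin, an enzyme that makes a chain-terminating nucleotide, and Cmpk2 encodes a nucleotide kinase. The pair are head-to-head neighbours, with Rsad2 at chr12:26442746-26456452 on the minus strand and Cmpk2 at chr12:26469204-26479837 on the plus strand. Rsad2 measured 6.68, 7.13 and 6.2 in LP MHCIIhi macrophages and 2.96, 1.97 and 2.61 in tumour MHCIIhi macrophages, a change of -4.16 ± 0.35 (limma adjusted p = 9.3e-08). In monocytes it measured 5.37, 6.51 and 5.06 in LP and 3.65, 3.4 and 3.77 in tumours, a change of -2.04 ± 0.35 (limma adjusted p = 0.000872). In neutrophils it stayed high, at 7.3, 7.38 and 6.82 in LP and 6.23, 5.95 and 6.49 in tumours, and the call there (-0.94 ± 0.35, limma adjusted p = 0.0472) was lost without any 1 of 4 libraries. Cmpk2 gave changes of -4.50, -3.85, -2.74 and -0.68 in the 4 populations, each ± 0.41, and was called lower in all but neutrophils.

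Mx1 and Mx2, genes of the family of dynamin-like antiviral GTPases, were called lower in all 4 populations, and whether these mice make working proteins from them was not tested. Mx1 measured 5.07, 5.5 and 4.77 in LP and 0.41, 0.83 and 1.42 in tumour MHCIIhi macrophages. In neutrophils Mx2 was counted in 57, 92 and 62 reads in LP and in 0 reads in each of the 3 tumour libraries. A floor of 3 reads in each tumour library makes it at least 3.47 log2 units lower than in LP, and the fitted -8.67 depends on the prior count of the deposited scale. Mx2 is annotated as a polymorphic pseudogene. Samd9l, a restriction factor, gave the most negative difference between the changes of macrophages and neutrophils: it measured 3.59, 3.87 and 3.52 in LP and -0.39, 0.4 and -1.9 in tumour MHCIIhi macrophages, but 6.2, 6.37 and 5.6 in LP and 6.93, 6.32 and 6.52 in tumour neutrophils. The change was -4.29 ± 0.46 in the former (limma adjusted p = 1.47e-06) and 0.54 ± 0.46 in the latter (limma adjusted p = 0.405). Isg20, an RNA exonuclease, likewise gave changes of -2.18 ± 0.35 and -3.12 ± 0.35 in macrophages and -0.24 ± 0.35 in neutrophils. Bst2, the tetherin that holds budding virus at the cell surface, was the exception. It measured 4.87, 5.19 and 5.16 in LP and 5.91, 5.1 and 5.75 in tumour MHCIIhi macrophages, and none of its changes passed the threshold.

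Isg15, which encodes the ubiquitin-like protein coupled to others during an interferon response, measured 4.02, 4.81 and 3.97 in LP MHCIIhi macrophages and 3.95, 1.67 and 1.97 in tumour MHCIIhi macrophages, so that tumour replicate I stood close to LP. The change was -1.74 ± 0.48 (limma adjusted p = 0.0142), and this call was lost without LP replicate IV or tumour replicate V or VII. In neutrophils Isg15 was level, at 6.32, 6 and 6.27 in LP and 6.22, 6 and 6.14 in tumours. Trim30a, a TRIM protein that restrains NF-kappaB signalling, gave changes of -1.05 ± 0.19 and -1.14 ± 0.19 in macrophages, -0.01 ± 0.19 in monocytes and 0.50 ± 0.19 in neutrophils, where its tumour libraries (7.39, 7.63 and 7.75) were all above LP (7.2, 7.31 and 6.75) with a limma adjusted p of 0.0533. Herc6, the ligase for ISG15 in mice, was called lower in MHCIIlow macrophages only (-1.23 ± 0.39), where the groups overlapped and the call was lost without any 1 of 4 libraries. Of the other induced genes, Rtp4, a chaperone of receptors, was called lower in all 4 populations: it measured 5.48, 5.73 and 5.49 in LP and 3.07, 1.32 and 2.19 in tumour MHCIIhi macrophages. In neutrophils it measured 8.46, 8.3 and 8.25 in LP and 7.15, 6.99 and 7.51 in tumours, the highest levels of any group. Parp14, an ADP-ribosyl transferase, gave changes of -1.58 ± 0.29 and -1.56 ± 0.29 in the macrophage subsets, and Ifi35 changes of -1.37 ± 0.28 and -1.12 ± 0.28, while neither passed in monocytes or neutrophils. Sp100, a nuclear body protein, was called lower in MHCIIhi macrophages alone (-0.55 ± 0.19, limma adjusted p = 0.0477), a call lost without any 1 of 5 libraries. Xaf1 gave changes from -1.14 to -0.50 and Ifi44, with an SE of 1.76, from -4.23 to -1.62, without passing in any population.

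The GTPases showed a different order of the populations. Of 7 GBP and IRG genes, 2 were called lower and 1 higher in MHCIIhi macrophages, 1 lower and 1 higher in MHCIIlow macrophages, and 5 lower in both monocytes and neutrophils. Their median changes were -0.75, -0.32, -1.80 and -2.10, and the test of the difference of changes, given further on, passed for 1 of the 7 between macrophages and monocytes and for 3 between macrophages and neutrophils. Irgm1, the regulator of the other IRGs, was the member called lower in all 4 populations. It measured 5.02, 5.26 and 4.64 in LP and 3.04, 2.44 and 3.43 in tumour MHCIIhi macrophages, and 7.16, 6.33 and 5.72 in LP and 4.22, 3.15 and 4.68 in tumour neutrophils. The changes were -2.00 ± 0.44, -1.66 ± 0.44, -2.12 ± 0.44 and -2.38 ± 0.44 (limma adjusted p = 0.00269, 0.00843, 0.00404 and 0.000361). Gbp2 measured 5.22, 5.71 and 5.67 in LP and 5.31, 4.93 and 5.5 in tumour MHCIIhi macrophages, with overlap and a change of -0.28 ± 0.55. In monocytes Gbp2 measured 8.77, 8.03 and 7.83 in LP and 7.24, 5.41 and 6.59 in tumours, a change of -1.80 ± 0.55 (limma adjusted p = 0.0444) that was lost on leaving out any 1 of 5 of the 6 libraries. Gbp7 was the member called higher. It measured 3.85, 4 and 3.74 in LP and 5.52, 5.2 and 5.52 in tumour MHCIIhi macrophages, a change of 1.55 ± 0.34 (limma adjusted p = 0.00301). In MHCIIlow macrophages it measured 3.3, 3.46 and 3.55 in LP and 4.78, 4.27 and 4.32 in tumours, also without overlap, but its call (1.02 ± 0.34, limma adjusted p = 0.037) was lost under median centring and on leaving out any 1 of the 6 libraries. Of the stretches of Gbp7, 12.6% occur in other genes. Gbp3 measured 4.7, 4.01 and 3.57 in LP and 3.54, 0.9 and 1.12 in tumour neutrophils, a change of -2.24 ± 0.46, and its changes in macrophages were 0.55 ± 0.46 and 0.86 ± 0.46. Ifi47, another IRG, was called lower in MHCIIhi macrophages (-1.86 ± 0.49), monocytes (-1.82 ± 0.49) and neutrophils (-2.10 ± 0.49). Igtp was called lower in monocytes (-1.67 ± 0.49) and neutrophils (-1.86 ± 0.49), and Iigp1 in the same populations with an SE of 1.60.

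Libraries of 1 group differed together in the GTPases. Replicate V of both tumour macrophage subsets and replicate II of tumour monocytes and neutrophils were the lowest of their groups for all 7 GTPases, except that Iigp1 had 0 reads in replicates II and V of tumour neutrophils alike, and LP monocyte and LP neutrophil replicate III and tumour monocyte replicate I were the highest for all 7. Igtp in tumour monocytes, for example, measured 5.03, 3.07 and 4.11 in replicates I, II and V, and Iigp1, an effector IRG, was counted in 84, 0 and 12 reads there. Over all members LP MHCIIhi replicate IV was the highest of its group for 40 of 44 and LP monocyte replicate IV for 35.

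**Figure D3:**
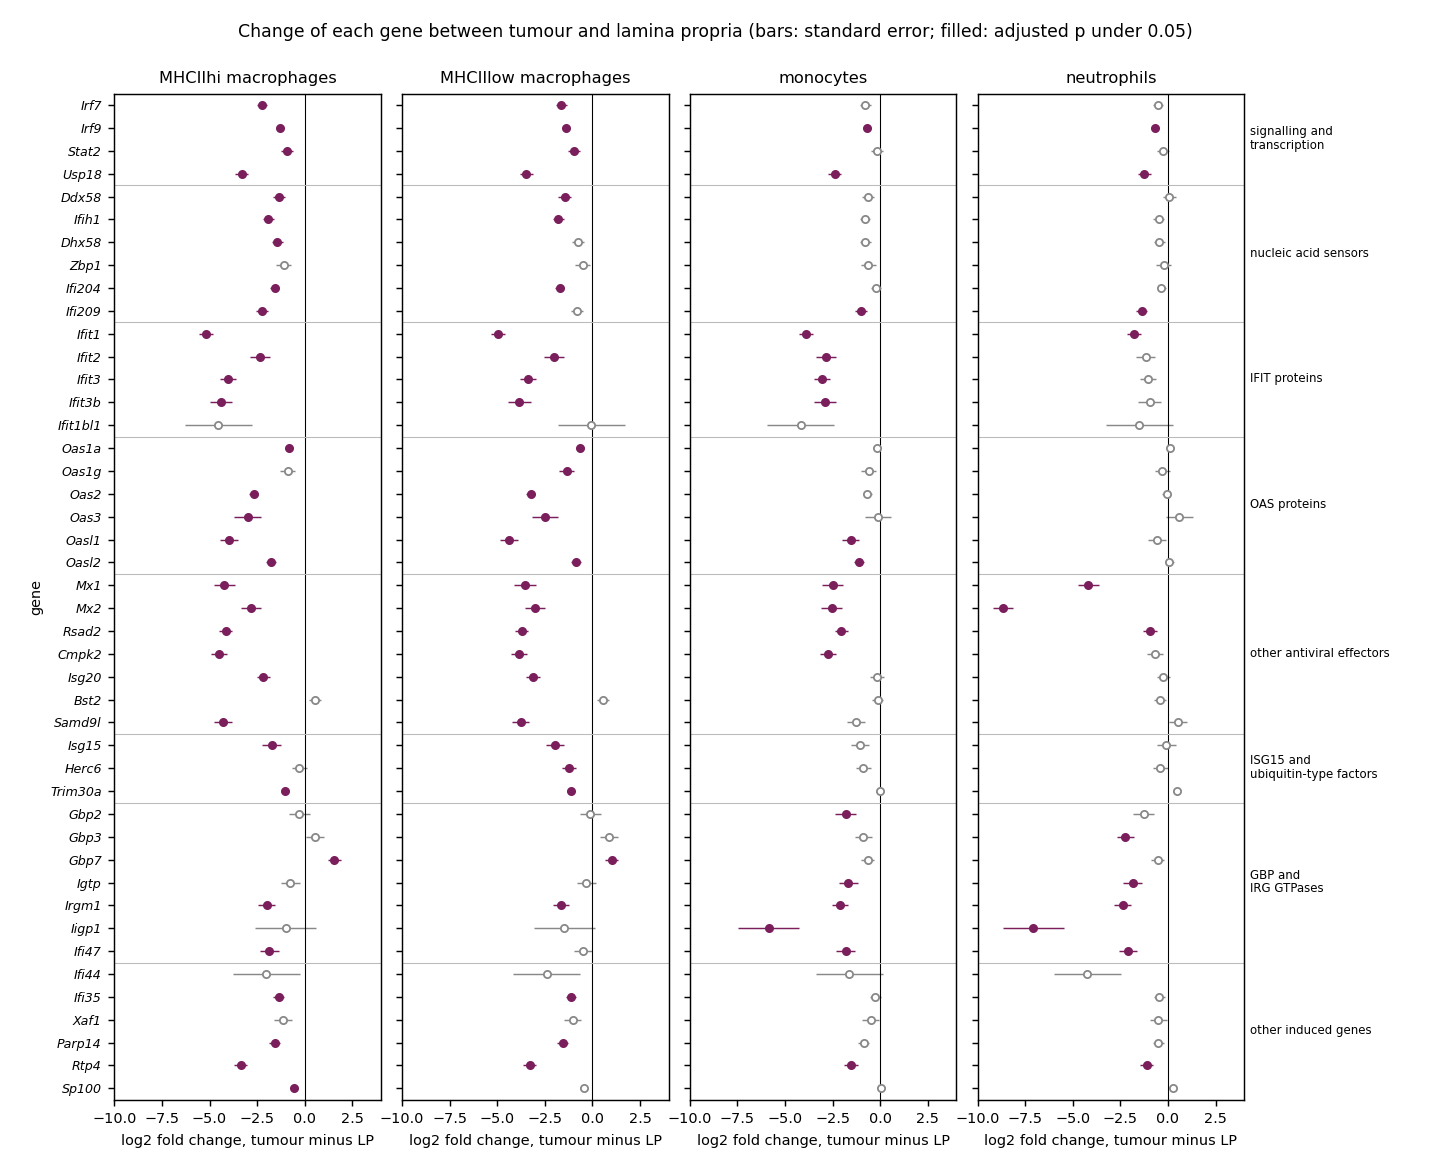
Log2 fold change, tumour minus LP (horizontal axes), of 44 ISGs (rows, grouped by role) in 4 populations, with bars for the standard error and filled points for an adjusted p under 0.05. In both macrophage panels the filled points of the IFIT, OAS and other antiviral rows lie left of 0. In neutrophils no OAS point is filled, and the point of Mx2 at -8.67 rests on 0 reads in the tumour libraries and on the prior count.

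Whether the tumour change differed between populations was tested by the difference of the changes. Between MHCIIlow and MHCIIhi macrophages 0 of 44 members passed limma's adjusted threshold in either direction (1.13% of all genes higher and 0.326% lower), and 2 had an unadjusted p under 0.05. The tests of macrophages, as the mean of both subsets, against monocytes and against neutrophils were added after the values were seen. Against monocytes, the change was more negative in macrophages for 10 members (5.64% of all genes) and more positive for 1, Gbp7 (3.55% of all genes). The 10 were Ifi204, Irf7, Irf9, Isg20, Oas2, Oasl1, Rsad2, Rtp4, Samd9l and Trim30a. The difference was -2.30 ± 0.30 for Oas2 (limma adjusted p = 5.5e-05) and -2.62 ± 0.57 for Oasl1 (limma adjusted p = 0.00517), but only -1.15 ± 0.45 for Ifit1 (limma adjusted p = 0.123). Against neutrophils it was more negative in macrophages for 23 members (11.5% of all genes) and more positive for 4 (14.5%), namely Gbp3, Gbp7, Iigp1 and Mx2. Samd9l gave -4.57 ± 0.57 (limma adjusted p = 8.43e-06), Oasl1 -3.62 ± 0.57 and Ifit1 -3.27 ± 0.45. The values of Mx2 and Iigp1 rest on libraries with 0 reads.

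Between neutrophils and monocytes the change was more positive in neutrophils for 4 members (3.61% of all genes), Cmpk2, Ifit1, Ifit3 and Oasl2, and more negative for 1, Mx2 (5.50% of all genes). For Ifit1 the difference was 2.12 ± 0.52 (limma adjusted p = 0.0136), and it missed the threshold with voom or with only the libraries compared. The count of 4 was 1 without LP monocyte replicate IV, LP neutrophil replicate V, tumour monocyte replicate I or II, or tumour neutrophil replicate I or V, and 2 without LP neutrophil replicate IV. These comparisons share libraries and are not independent of each other.

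**Figure D4:**
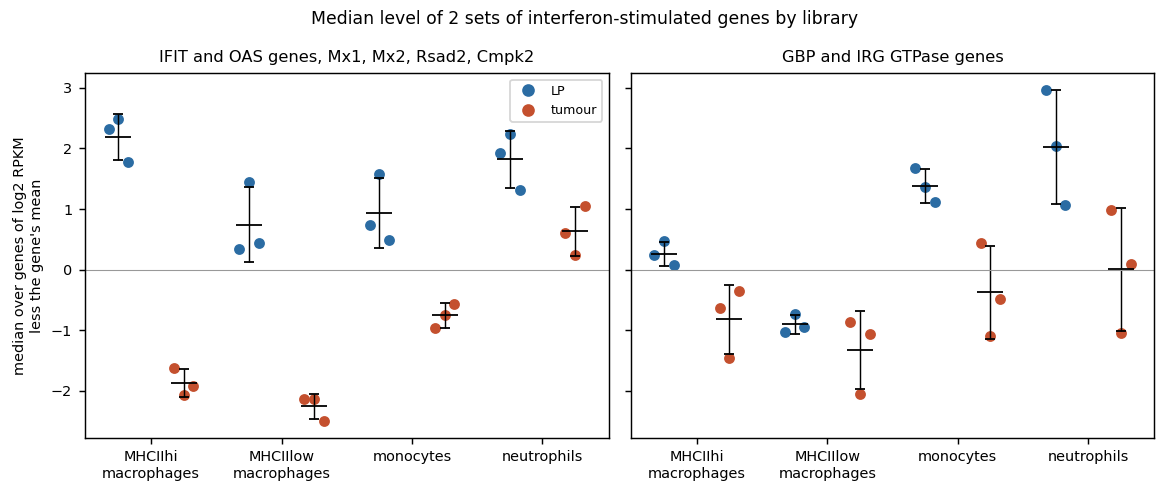
Median over the genes of a set of log2 RPKM less each gene's mean over 24 libraries (vertical axis), for 15 IFIT, OAS, Mx, Rsad2 and Cmpk2 genes and for 7 GBP and IRG genes, in each library of LP (blue) and tumour (red), with lines for mean and SD of 3 libraries. In the antiviral set tumour macrophages lie between -2.5 and -1.62, below the LP macrophages at 0.34 to 2.49, whereas in the GTPase set tumour and LP MHCIIlow macrophages overlap.

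Summarised per library, 15 IFIT, OAS, Mx, Rsad2 and Cmpk2 genes stood at 2.19 ± 0.38 (SD, n = 3) in LP MHCIIhi and -1.87 ± 0.23 in tumour MHCIIhi macrophages, as the median of log2 RPKM less each gene's mean. In neutrophils the same score was 1.82 ± 0.47 in LP and 0.63 ± 0.40 in tumours, and in monocytes 0.93 ± 0.57 and -0.76 ± 0.20. For the 7 GTPases it was 2.02 ± 0.94 in LP and 0.01 ± 1.02 in tumour neutrophils, a spread between libraries larger than in the antiviral set. LP neutrophils held the highest group mean for 19 members, LP MHCIIhi macrophages for 12, and LP monocytes and tumour neutrophils for 6 each. Tumour MHCIIlow macrophages held the lowest for 32.

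Between the macrophage subsets of 1 tissue, members were called in LP only, and most of those calls rested on single libraries. In LP 8 members were called lower in MHCIIlow and 0 higher, beside 5.57% and 2.13% of all genes, with a median difference of -0.68 (-0.03 over all genes). They were Dhx58, Ifi209, Ifi47, Ifit1bl1, Ifit2, Irf7, Oasl2 and Rsad2. Ifi209 measured 5.27, 5.6 and 4.81 in LP MHCIIhi and 2.92, 3.37 and 3.16 in LP MHCIIlow macrophages, a difference of -2.08 ± 0.31 (limma adjusted p = 0.000221). The count of 8 was 1 without LP MHCIIhi replicate III or IV and 2 without LP MHCIIlow replicate II or IV, and Ifit1bl1 rested on 1 library with 0 reads. In tumours 0 members passed limma's adjusted threshold in either direction (0.567% of all genes each way), with a median of -0.53 and 11 members at an unadjusted p under 0.05. With the donor label as a fixed block 2 members were called lower there.

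Against monocytes, LP macrophages (mean of both subsets) held less of 18 members and more of 5, where 17.0% and 12.5% of all genes were called. Among the members called higher in macrophages were Ifit3b, by 2.3 ± 0.51 (limma adjusted p = 0.00181), and Oasl1, by 1.80 ± 0.41 (limma adjusted p = 0.00208). For Ifit3b the groups overlapped, with LP monocytes at -0.78 to 2.57 and LP MHCIIlow macrophages at 2.48 to 3.59. Gbp2 gave the most negative difference of the called members, -3.18 ± 0.48 (limma adjusted p = 3.68e-05). Without LP monocyte replicate IV 11 were lower, without replicate III 2 were higher and without replicate V 3 were higher. In tumours 27 members were lower in macrophages than in monocytes and 4 were higher (21.4% and 16.8% of all genes), with a median difference of -1.26. Oas3 was at 4.75, 4.47 and 4.29 in tumour monocytes and gave the most negative difference, -5.18 ± 0.59 (limma adjusted p = 7.11e-07), while Bst2 was higher in tumour macrophages by 1.74 ± 0.27 (limma adjusted p = 2.6e-05) and Iigp1 by 5.35 ± 1.38 (limma adjusted p = 0.00433), the latter with 0 reads in 1 tumour monocyte library. Without tumour monocyte replicate II 2 were higher in place of 4.

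Neutrophils held more of many members than monocytes. In LP 15 members were called higher in neutrophils and 7 lower, beside 24.1% and 30.4% of all genes, and in tumours 22 were higher and 7 lower, beside 23.3% and 34.9%. Isg20 measured 6.97, 6.58 and 6.93 in LP neutrophils and 2.51, 3.11 and 2.81 in LP monocytes, a difference of 4.01 ± 0.35 (limma adjusted p = 1.04e-08). Samd9l gave the same size of difference in tumours, 4.0 ± 0.46, where monocytes measured 2.52, 2.05 and 3.23. Ifi209 went the other way, with 2.07, 2.27 and 2.8 in LP neutrophils and 6.38, 6.71 and 6.11 in LP monocytes, a difference of -4.02 ± 0.31 in LP and -4.38 ± 0.31 in tumours. Mx1, Mx2, Bst2, Gbp3 and Ifi204 were also called lower in neutrophils of both tissues, although the calls of Ifi204 in both tissues and of Gbp3 in LP were lost with median centring. The OAS genes Oas2, Oas3 and Oasl2, by contrast, were called higher in neutrophils of both tissues. The share of higher among the called members in LP was 68.2%, and it was 55.6% under quantile normalization and 82.6% with libraries centred on their median. Among all genes called, these shares were 44.2%, 45.1% and 54.1%. With quantile normalization 10 of the 44 members were higher and 8 lower in LP neutrophils, with a median difference of 0.07. Of all 12878 genes, 2899 were then higher and 3533 lower, so that the count of higher members was near the background. The median of all genes lay at -0.24 in LP and -0.36 in tumours and rose by 0.29 and 0.45 with median centring. Without LP neutrophil replicate V 4 members were lower in LP, and without tumour neutrophil replicate I the median of the members in tumours was 0.65 in place of 1.15.

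Genes of the interferon pathway itself were called in both directions. Of 36 tested, 5 were called higher and 10 lower in tumour MHCIIhi macrophages, where 8.01% and 11.5% of all genes were. In MHCIIlow macrophages 10 were higher and 11 lower (11.5% and 11.8% of all genes), in monocytes 4 and 1 (4.86% and 4.43%), and in neutrophils 7 and 9 (13.1% and 19.0%). Their median changes were -0.15, -0.17, -0.19 and 0.00 in these populations. Ifnb1, which encodes IFN-beta, was counted in 293, 696 and 206 reads in LP MHCIIhi macrophages and in 189, 41 and 26 reads in tumour MHCIIhi macrophages. Its change passed the threshold in MHCIIlow macrophages (-3.26 ± 0.95, limma adjusted p = 0.0159) and not in MHCIIhi macrophages (-2.29 ± 0.95, limma adjusted p = 0.1). All 6 neutrophil libraries had 0 reads of Ifnb1. Ifnar1, a chain of the type I receptor, was called higher in MHCIIhi macrophages (0.74 ± 0.12), MHCIIlow macrophages (1.04 ± 0.12) and neutrophils (0.37 ± 0.12). Ifngr1, of the IFN-gamma receptor, was called higher in both macrophage subsets (0.82 ± 0.15 and 1.60 ± 0.15). Both were named after their values were seen, and changes of other receptor genes are not given here. Among the kinases Jak1 was called lower in both macrophage subsets (-0.80 ± 0.11 and -1.03 ± 0.11), whereas Tyk2 was called higher in them (1.11 ± 0.19 and 0.72 ± 0.19) and in monocytes (1.03 ± 0.19). Of the inhibitors, Socs1 was called lower in both macrophage subsets (-2.04 ± 0.36 each) and in neutrophils (-2.42 ± 0.36), whereas Ptpn6, which encodes the phosphatase SHP-1, was called higher in all 4 populations (1.66, 2.05, 0.82 and 1.14, each ± 0.20). Tmem173, which encodes the DNA-sensing adaptor STING, was also called higher in all 4 (1.67, 1.31, 0.93 and 1.72, each ± 0.21).

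Other interferon-responsive genes outside the module gave 19 calls lower and 1 higher of 52 in MHCIIhi macrophages, beside 11.5% and 8.01% of all genes. There were 12 lower and 5 higher in MHCIIlow macrophages (11.8% and 11.5% of all genes), 17 and 0 in monocytes (4.43% and 4.86%), and 26 and 3 in neutrophils (19.0% and 13.1%). Slfn1, of the Schlafen family, gave changes of -4.69 ± 0.37 and -4.18 ± 0.37 in macrophages, -1.60 ± 0.37 in monocytes and -0.38 ± 0.37 in neutrophils, which held most of it in both tissues (8.30 ± 0.38 and 7.92 ± 0.17 log2 RPKM, SD, n = 3). Irgm2, an IRG, was called lower in all 4 populations (-2.24, -1.17, -1.27 and -2.64, each ± 0.31). Gbp4 gave changes of -0.64 ± 0.52 and 0.79 ± 0.52 in macrophages, without passing, and was called lower in monocytes (-1.99 ± 0.52) and neutrophils (-2.77 ± 0.52). Cxcl9, a chemokine known for its response to IFN-gamma, was called higher in tumour MHCIIlow macrophages (2.23 ± 0.74, limma adjusted p = 0.0335), although the groups overlapped, and lower in tumour neutrophils (-3.07 ± 0.74). Neither Gbp4 nor Cxcl9 was called lower in tumour macrophages, whereas Irgm2 was called lower in both subsets. Gbp8, another GBP, was counted in more reads in tumour macrophages, before scaling to library size. It had 1424, 1630 and 1005 reads in LP and 4546, 4258 and 4079 in tumour MHCIIhi macrophages. In MHCIIlow macrophages it had 315, 181 and 283 reads in LP and 2672, 2370 and 1829 in tumours.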

How the data were processed

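Modified SMARTSeq v2 libraries were sequenced as paired ends by the authors. According to the submitters' processing notes, reads were aligned to GRCm38/mm10 with STAR 2.3 and counted on GENCODE genes with featureCounts 1.5, and edgeR was used; whether counting used strand is not given in the sources used here. The authors deposited 1 table of log2 RPKM. Its values show a small prior count and library sizes scaled between libraries, at 0.466 to 1.507 times the summed reads and lowest in neutrophils. Whole reads per gene were recovered from the deposited values and used for depth (12.84 M to 41.72 M reads), a floor of 3 reads and voom.

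Groups were compared with limma 3.58.1 (lmFit, contrasts.fit, eBayes with trend) in R 4.3.3, with 8 group means over 24 libraries, for genes whose mean RPKM reached 1 in any group. P values were two-sided and adjusted by Benjamini-Hochberg within each comparison, at 0.05, and measure the spread between pooled libraries. The fit was tested on simulated data. Genes named were the most abundant member of each role, those with the largest rise and fall per comparison, and others chosen after their values were seen. The members and lists were chosen with earlier results of these data known. Tables came from pandas 2.3.3 and numpy 2.4.6 under python 3.11.15, and figures from matplotlib 3.10.9.

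Alternatives were log2(RPKM + 1), log2(RPKM + 0.1), a filter at a mean RPKM of 5 or none, quantile normalization, median centring, voom, only the libraries compared, the donor label as a block, and leaving out each library. Donor labels pair libraries within a tissue. Over 29 such pairs deviations from group means correlated with r of -0.0661 to 0.255 and a median of 0.0169, with 5 pairs over 0.1. Values of some listed genes are not reported here.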

Additional observations from a re-analysis of the deposited data

Results flagged for a closer look

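The change from LP to tumour differed between populations, by limma's test of the difference with an adjusted p under 0.05, for 43 pairs of a member and a comparison. The values are differences of log2 fold changes.

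Neutrophils minus monocytes gave 1.19 for Oasl2, 2.06 for Cmpk2, 2.01 for Ifit3, 2.12 for Ifit1 and -6.12 for Mx2, whose tumour neutrophil libraries had 0 reads.

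Macrophages minus monocytes, a comparison added after the values were seen, gave -1.42 for Ifi204, -2.62 for Oasl1, -2.3 for Oas2, -2.76 for Samd9l, -2.47 for Isg20, -1.08 for Trim30a, -1.16 for Irf7, -1.9 for Rsad2, -0.68 for Irf9 and -1.8 for Rtp4, and 1.93 for Gbp7.

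Macrophages minus neutrophils, also added later, gave negative differences for the OAS genes Oasl1 (-3.62), Oas3 (-3.34), Oas2 (-2.91), Oasl2 (-1.41) and Oas1a (-0.84). The IFIT genes gave -3.27 (Ifit1), -3.15 (Ifit3b) and -2.67 (Ifit3), and other effectors -4.57 (Samd9l), -3.49 (Cmpk2), -3.0 (Rsad2) and -2.4 (Isg20). Signalling members gave -2.16 (Usp18), -1.42 (Irf7) and -0.67 (Irf9), sensors -1.48 (Ddx58), -1.37 (Ifih1) and -1.31 (Ifi204), and the rest -2.22 (Rtp4), -1.78 (Isg15), -1.6 (Trim30a), -1.06 (Parp14) and -0.75 (Sp100). Positive differences were 2.95 for Gbp3, 1.83 for Gbp7, 5.83 for Iigp1 and 5.74 for Mx2, of which the last 2 rest on libraries with 0 reads.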

How the results depend on the processing

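Of 252 calls of members over 14 comparisons, 187 held under every alternative and 165 also on leaving out any library. Of the tumour against LP calls, 30 of 33 held throughout in MHCIIhi macrophages, 21 of 31 in MHCIIlow macrophages, 9 of 19 in monocytes and 4 of 13 in neutrophils. The fitted difference of Mx2 changed sign under an alternative in the 2 comparisons of neutrophil changes with other cells, where the value rests on 0 reads. Where a count below moved, the cause was not tested. Depth limits members near 0 reads (Mx2, Iigp1, Ifi44 and Ifit1bl1).

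For tumour against LP, the 1 higher member became 2 with only the libraries compared in both macrophage subsets, and in MHCIIlow macrophages 0 with median centring, 3 with voom and 0 on leaving out any library. The median there was -1.17 on log2(RPKM + 1). With only the libraries compared 11 members were lower in monocytes and 8 in neutrophils, and leaving out libraries gave 11 to 17 in monocytes. In neutrophils 1 was higher on log2(RPKM + 1), with a mean RPKM of at least 5, with median centring and with voom (0 to 1 on leaving out libraries).

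Between macrophage subsets, 13 members were lower in LP on log2(RPKM + 1) and with voom (1 to 10 on leaving out libraries), and in tumours 1 with quantile normalization (0 to 1). The donor label as a fixed block gave 2 there, and as a random block 33, 30, 19 and 13 lower for tumour against LP; the block moved no other count of members by over 1.5 times. A fixed block could not be fitted for tumour against LP, which share no donor pools. Between macrophages and monocytes, leaving out libraries gave 2 to 6 higher and 11 to 19 lower in LP and 2 to 4 higher in tumours.

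Between neutrophils and monocytes, 4 were lower in LP with median centring (4 to 7 on leaving out libraries), the median in LP was 0.07 with quantile normalization, and in tumours 0.66 with it, 1.59 with median centring and 0.65 to 1.35 on leaving out libraries.

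For differences of the tumour change, MHCIIlow minus MHCIIhi gave 2 higher on log2(RPKM + 1) and 1 with voom (0 to 1 on leaving out libraries). Neutrophils minus monocytes gave 1 higher with only the libraries compared (1 to 5) and 0 lower on log2(RPKM + 1), log2(RPKM + 0.1) and with voom (1 to 2). Macrophages minus monocytes gave 2 higher on log2(RPKM + 1), log2(RPKM + 0.1), quantile normalization and voom, 3 with only the libraries compared (1 to 2), and 16 lower with quantile normalization. Macrophages minus neutrophils gave 2 higher on log2(RPKM + 1) and with voom (3 to 7), and a median of -1.18 with quantile normalization.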
